A study of Mus musculus with 2 samples.

Results

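Kinesins are motor proteins that walk along microtubules. The 42 genes described here are all those of the deposited tables whose symbol begins with Kif, of 20634 genes listed. Of these, 32 were at 1 FPKM or more in either library and are analysed, among 12165 genes that passed the same limit. FPKM is the number of sequenced fragments scaled to transcript length and library depth, so levels can be compared between genes. The 32 comprise 13 mitotic kinesins, 10 cargo kinesins, 6 kinesins of cilia and 3 with other roles, placed by their textbook functions. The symbol rule also takes in Kifap3, which encodes a subunit of a kinesin complex and no motor.

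RNA was taken from the whole uterus of pregnant mice on gestational day 4, counted from the vaginal plug as day 1, in females mated at 6 to 8 weeks of age. There was 1 library from Mettl3 ed/ed mice and 1 from Mettl3 f/f mice, and the number of animals behind each, the meaning of ed and the tissue in which the gene was altered are not given in the labels. Mettl3 encodes the catalytic subunit of the enzyme that writes N6-methyladenosine (m6A) on RNA. Mettl3 itself was at 10.2 FPKM in the library labelled ed/ed and 10.6 FPKM in the library labelled f/f, so its level did not separate the libraries, and every direction given here rests on their labels. Depth, read from the spacing of low values, was about 17200000 fragments for ed/ed and 18200000 fragments for f/f. With 1 library per genotype no spread between animals exists and no test was possible. The intervals given cover counting error only and are on the deposited scale. A difference of 2-fold on the scale of log2(FPKM + 1) stands in for a call.

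Mitotic kinesins build and shorten the spindle, carry chromosomes and finish cell division, and their genes are transcribed mainly in late cell cycle. Cargo kinesins move vesicles, endosomes, mitochondria and proteins in cells that need not divide. Ciliary kinesins carry material into the cilium or set its length. On the days before implantation in the mouse, uterine epithelial cells stop dividing under progesterone while stromal cells proliferate, as known from earlier work.

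Summed kinesin RNA was lower in the ed/ed library than in the f/f library, with lower medians for the mitotic kinesins and for the 3 kinesins of other roles than for the cargo and ciliary kinesins. All 13 expressed mitotic kinesins had lower FPKM in ed/ed, and their summed level was 47.8 FPKM in ed/ed and 90.0 FPKM in f/f. The ciliary kinesins summed to 26.8 FPKM in ed/ed and 28.9 FPKM in f/f, and without Kif19a to 24.2 FPKM in ed/ed and 28.6 FPKM in f/f. Of the 32 genes, 4 were at least 2-fold lower in ed/ed (Kifc2, Kif20b, Kif20a and Kif2c), against 6.22% of all 12165 genes. Only Kif19a was at least 2-fold higher, against 2.68% of all genes, which makes 5 of 32 past 2-fold either way, against 8.9%. At 1.5-fold 15 kinesins were lower, against 23.4% of all genes, and 1 was higher, against 7.04%. The median log2 ratio of ed/ed over f/f was -0.72 for mitotic kinesins, -0.40 for cargo kinesins, -0.18 for ciliary kinesins, -0.70 for the others and -0.26 for all genes.

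**Figure D1:**
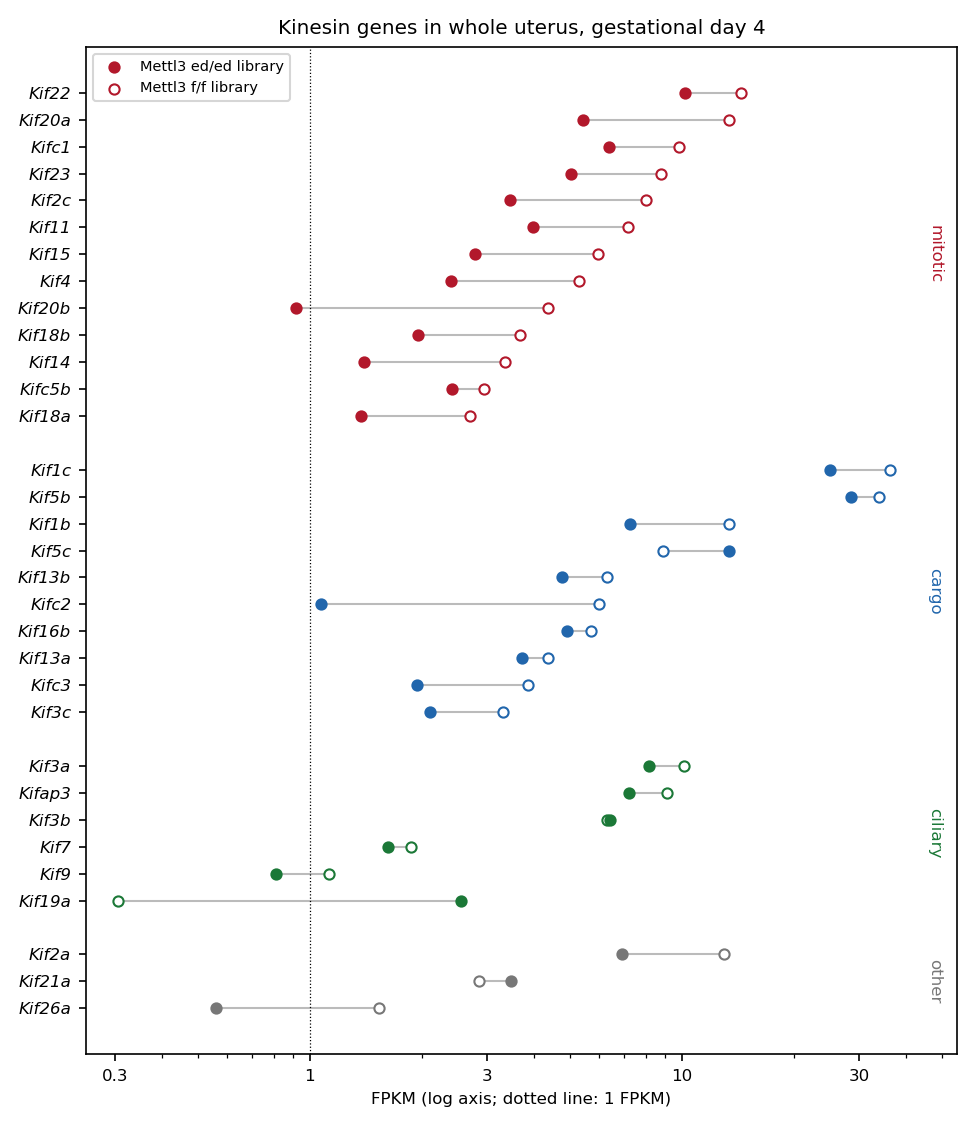
Level of each of the 32 expressed kinesin genes in FPKM on a log axis, with filled points for the Mettl3 ed/ed library and open points for the Mettl3 f/f library, 1 library each. The filled point lies left of the open one for all 13 mitotic genes, while Kif5c, Kif3b, Kif19a and Kif21a lie the other way.

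The deposited scale carries an overall shift, since the median log2 ratio of all genes was -0.26 and 70.4% of genes were below 0. Relative to that median, 12 of 13 mitotic kinesins, 6 of 10 cargo kinesins, 2 of 6 ciliary kinesins and 2 of 3 others were lower. The mitotic median then stood at -0.46, the cargo median at -0.14 and the ciliary median at 0.08. On that scale Kif20b and Kifc2 were 2-fold lower, against 2.72% of all genes, and Kif19a higher, against 4.96%. Summed over estimated fragments, mitotic kinesins had 2604 in ed/ed and 5588 in f/f. Corrected for depth, that is a ratio of 0.494 with an exact 95% counting interval of 0.471 to 0.518. The same ratio was 0.765 (0.746 to 0.785) for cargo kinesins 0.936 (0.878 to 0.998) for ciliary kinesins and 0.642 (0.594 to 0.694) for the others. The ciliary ratio leans on Kif19a, which passed the limit through the ed/ed library only, and is 0.870 (0.814 to 0.929) without it. These intervals say nothing of how far 2 animals of 1 genotype would differ. The fragment ratios keep the overall shift, and scaling ed/ed to a median ratio of 1 would multiply each by 1.23. An interval below 1 therefore need not lie below the median of all genes. As a share of all kinesin FPKM, the mitotic class held 26.8% in ed/ed and 34.9% in f/f.

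Kif20b and Kif20a, which encode kinesin-6 motors of the spindle midzone and midbody in cytokinesis, had the lowest mitotic ratios. Kif20b (ENSMUSG00000024795, chromosome 19) passed the limit of 1 FPKM through the f/f library only. It was at 0.917 FPKM in ed/ed and 4.37 FPKM in f/f. That is 2.80-fold lower on the log2(FPKM + 1) scale and an FPKM ratio of 0.210, with a counting interval of 0.164 to 0.266 from 84 and 424 estimated fragments. Kif20a, which brings the chromosomal passenger complex to the midzone, was at 5.42 FPKM in ed/ed and 13.4 FPKM in f/f, or 2.25-fold lower. Kif23, the motor of the centralspindlin complex, was at 5.05 FPKM in ed/ed and 8.80 FPKM in f/f, a difference within 2-fold. The level of Kif20a exceeded that of Kif20b 5.92 times in ed/ed and 3.07 times in f/f. Kif14, a kinesin-3 of the midbody, was at 1.40 FPKM in ed/ed and 3.36 FPKM in f/f.

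Kinesins that act on microtubule ends were lower too, with Kif2c just past the 2-fold limit. Kif2c, a depolymerase at centromeres, was at 3.47 FPKM in ed/ed and 8.00 FPKM in f/f, a log2 ratio of -1.01. The next mitotic gene, just inside the limit, was Kif4 at -0.89. The kinesin-8 genes Kif18a, which damps chromosome movement, and Kif18b, which acts at astral microtubules, were close to each other. Kif18a was at 1.38 FPKM in ed/ed and 2.69 FPKM in f/f, and Kif18b was at 1.96 FPKM in ed/ed and 3.67 FPKM in f/f. Their log2 ratios were -0.64 and -0.66.

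Motors that set up the bipolar spindle and hold chromosome arms were lower as well. Kif11, which pushes spindle poles apart, was at 3.99 FPKM in ed/ed and 7.19 FPKM in f/f. Kif15, which can back it up, was at 2.79 FPKM in ed/ed and 5.96 FPKM in f/f. The chromokinesin gene Kif4 was at 2.40 FPKM in ed/ed and 5.28 FPKM in f/f. All 3 were below the median of all genes, with log2 ratios of -0.72, -0.88 and -0.89.

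The smallest differences of the class belonged to Kif22, Kifc1 and Kifc5b. Kif22, the other chromokinesin and the most abundant mitotic member in both libraries, was at 10.2 FPKM in ed/ed and 14.5 FPKM in f/f. Kifc1, a motor that walks to microtubule minus ends and clusters spindle poles, was at 6.40 FPKM in ed/ed and 9.84 FPKM in f/f. Kifc5b, its near copy, was at 2.41 FPKM in ed/ed and 2.93 FPKM in f/f, the only mitotic member above the median of all genes. Of the 31-base words of the longest coding Kifc1 transcript, 58.7% also occur in Kifc5b transcripts, so reads may be split between these genes. Added together they were at 8.80 FPKM in ed/ed and 12.8 FPKM in f/f, a log2 ratio of -0.49.

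**Figure D2:**
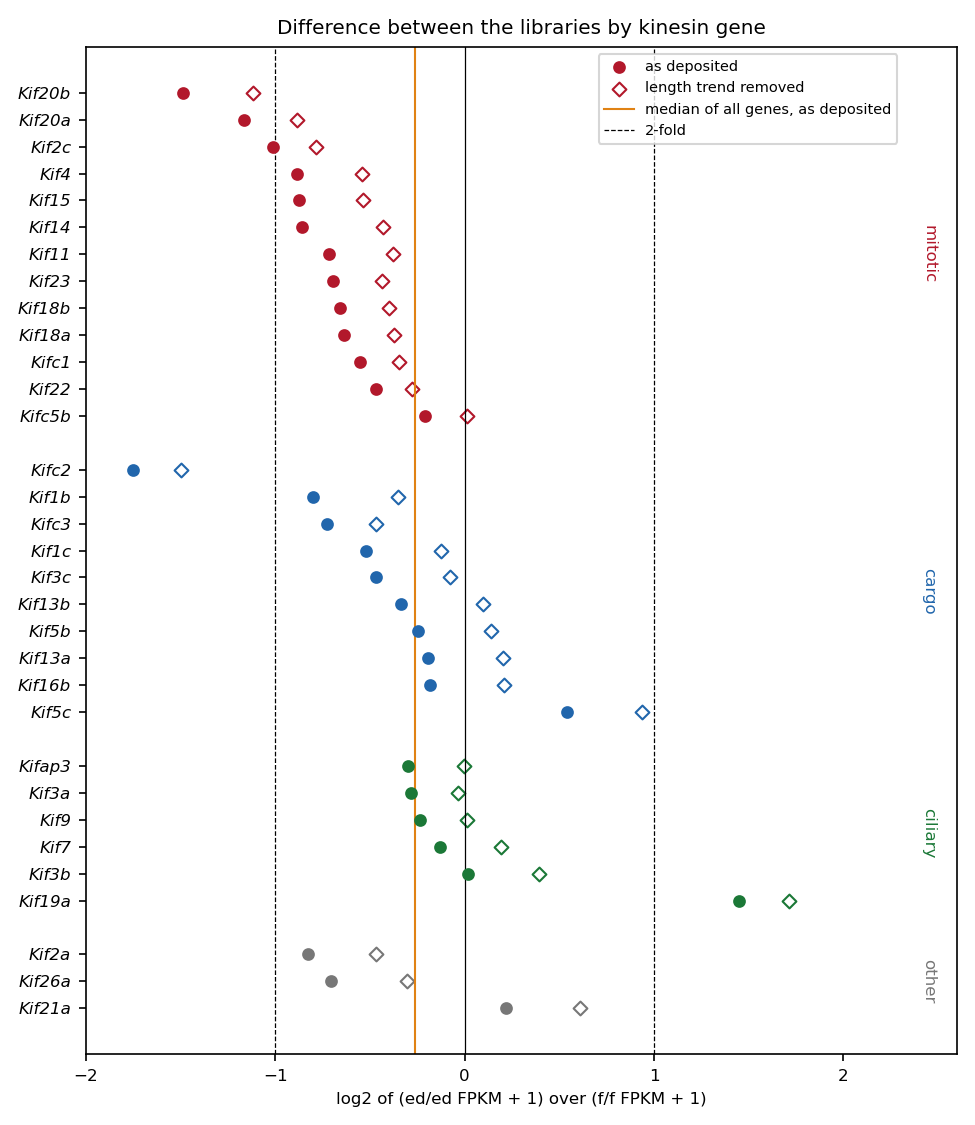
Log2 ratio of ed/ed over f/f for each expressed kinesin gene as deposited (filled circles) and after removal of the trend with transcript length (open diamonds), by class. Kif20b, Kifc2 and Kif19a lie beyond the dashed 2-fold lines on both scales, while Kif20a and Kif2c do so as deposited only.

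Most mitotic kinesin genes with a promoter sequence also share a promoter element. The cell cycle genes homology region (CHR) is a short element near the start of many genes transcribed in late cell cycle, with the core TTTGAA or TTTAAA. Promoters of 26 of the 32 expressed members were matched by symbol to RefSeq sequences on GRCm38.p6, from 250 bases before to 50 after the annotated start. With members under the limit included, 34 had a sequence. For 26 of those 34, the first 30 bases after the start occurred in a GENCODE transcript of the gene. For the others the start used may not be that of the main transcript. No sequence was matched for Kif20a, Kifc2 and Kif19a, which were past 2-fold, or for Kif5b, Kif13b and Kifc3. Both cores were searched on both strands (TTTGAA reads TTCAAA on the other strand, and TTTAAA reads the same). A core lay wholly within 50 bases of the start in 10 of 12 mitotic promoters. It did so in 0 of 17 promoters of the 14 other expressed kinesins with a sequence, and in 8.28% of 32851 promoters of all genes. In the whole window of 300 bases the counts were 11 of 12 and 0 of 17, against 27.6% of all promoters. The element was looked for because of what these genes are known for, and a match is a description of letters and not of binding.

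The sites nearest the start are shown because they are what most of the mitotic promoters have in common. Each line gives 30 bases, 5′ to 3′ on the strand of the gene, with the CHR core in capitals and the position of its first base counted from the start.
Kif11, chr19:37376351-37376380, plus strand, position -19: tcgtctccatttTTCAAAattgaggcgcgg
Kif15, chr9:122951050-122951079, plus strand, position -19: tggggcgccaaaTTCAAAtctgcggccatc
Kif22, chr7:127042420-127042449, minus strand, position -17: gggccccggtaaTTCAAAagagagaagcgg
Kif14, chr1:136467794-136467823, plus strand, position -42: gatctctctcttTTTAAAgtttgtagtaac
Kif23, chr9:61946780-61946809, minus strand, position 3: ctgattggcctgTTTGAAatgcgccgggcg
Kif18b, chr11:102925104-102925133, minus strand, position 4: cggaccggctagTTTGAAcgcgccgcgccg
Kif20b, chr19:34922353-34922382, plus strand, position 8: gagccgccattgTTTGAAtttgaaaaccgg
Kif4, chrX:100626072-100626101, plus strand, position 20: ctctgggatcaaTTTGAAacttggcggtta
Kifc1, chr17:33890615-33890644, minus strand, position 2: cggaggttgaaaTTCAAAagtggcgggtgt
Kifc5b, chr17:26917108-26917137, plus strand, position 30: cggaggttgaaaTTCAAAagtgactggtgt

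Kif20b, the mitotic member with the lowest ratio, carried a pair of TTTGAA cores in a row, of which the first is in capitals. Kifc1 and Kifc5b carried almost the same stretch, so they are not separate cases of the element. Kif2c had its nearest core centred at position -100, and Kif18a had none in its window. The upstream stretch of Kif11 shows the usual arrangement with a CCAAT box, read as ATTGG on this strand, ahead of the CHR core (100 bases, GRCm38.p6, chr19:37376282-37376381, plus strand, both motifs in capitals).
Kif11 upstream: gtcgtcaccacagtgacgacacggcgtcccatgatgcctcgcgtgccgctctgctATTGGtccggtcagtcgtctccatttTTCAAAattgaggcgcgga
A CCAAT box on either strand was found in 8 of 12 mitotic promoters, 5 of 17 promoters of other expressed kinesins and 37.4% of all promoters. No near CHR core shared a base with a CCAAT box (0 sites).

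**Figure D3:**
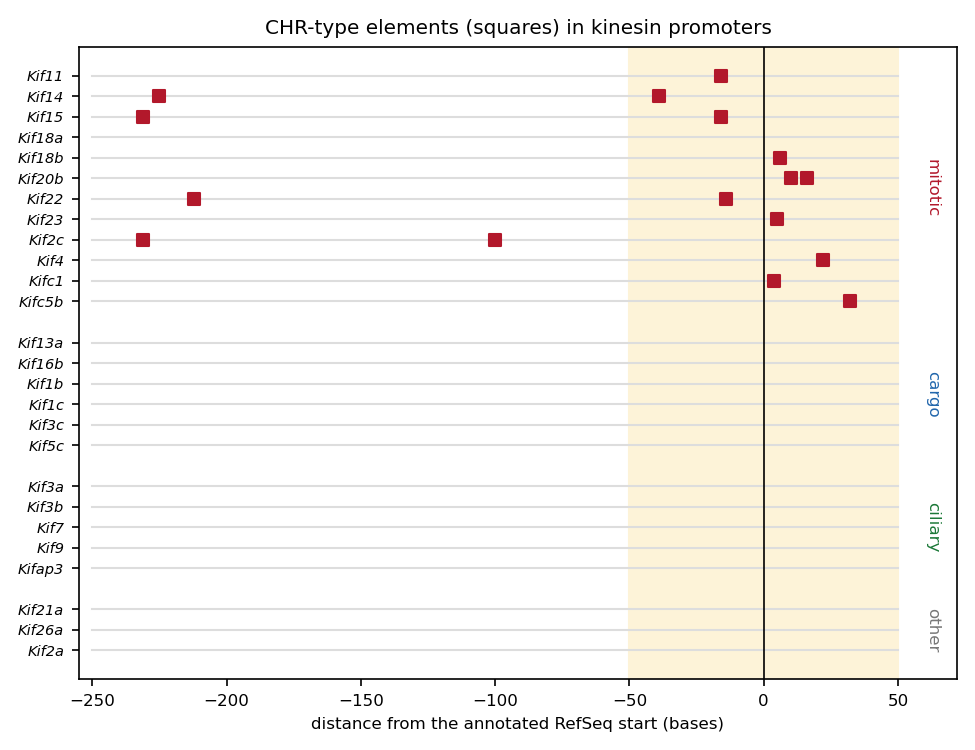
Position of CHR-type elements (squares, centre of each element) relative to the annotated RefSeq start, in bases, for the 26 expressed kinesin genes with a promoter sequence. The shaded band spans 50 bases either side of the start. It holds an element in 10 of 12 mitotic genes, and squares are absent from the 14 other genes.

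Cargo kinesins were the most abundant class, and their log2 ratios lay on both sides of the median of all genes, 6 below it and 4 above. Their summed level was 92.7 FPKM in ed/ed and 122 FPKM in f/f, or 52.0% and 47.2% of all kinesin FPKM. Kif5b, the ubiquitous heavy chain of conventional kinesin, was the highest kinesin in ed/ed at 28.5 FPKM, against 33.9 FPKM in f/f. Its log2 ratio of -0.24 turned to 0.14 with the length trend removed. Kif1c, a kinesin-3 of Golgi and integrin vesicles, was the highest in f/f, at 25.0 FPKM in ed/ed and 36.2 FPKM in f/f.

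Kif5c, the conventional heavy chain best known from neurons, had the opposite sign to Kif5b. It was at 13.4 FPKM in ed/ed and 8.91 FPKM in f/f, an FPKM ratio of 1.505 with a counting interval of 1.39 to 1.63. Its log2 ratio was 0.54 as deposited, positive under every setting tried (0.40 to 0.94) and below 2-fold in each. Kif5b therefore exceeded Kif5c 2.12 times in ed/ed and 3.81 times in f/f. Kif5a, the third heavy chain, was at 0.133 FPKM in ed/ed and 0.160 FPKM in f/f, under the limit of 1 FPKM.

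Kifc2 had the lowest ratio of all kinesins. It encodes a minus-end family motor described in neurons (ENSMUSG00000004187, chromosome 15). Its level was 1.08 FPKM in ed/ed and 5.98 FPKM in f/f, or 3.36-fold lower on the log2(FPKM + 1) scale. The FPKM ratio was 0.180 (counting interval 0.133 to 0.240) from 55 and 324 estimated fragments, and 0.773% of all genes had a lower log2 ratio. Its neighbour Cyhr1 overlaps it by 260 bases on the other strand and was at 57.6 FPKM in ed/ed and 60.4 FPKM in f/f, with a log2 ratio of -0.07. Kifc3, a minus-end motor of epithelial junctions, was at 1.94 FPKM in ed/ed and 3.87 FPKM in f/f.

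The kinesin-3 genes other than Kif1c split into lower and level members. Kif1b, which carries mitochondria and vesicles, was at 7.25 FPKM in ed/ed and 13.4 FPKM in f/f, a log2 ratio of -0.80. Kif13a, a motor of recycling endosomes, was at 3.71 FPKM in ed/ed and 4.38 FPKM in f/f. Kif13b, which binds Dlg scaffold proteins, was at 4.77 FPKM in ed/ed and 6.28 FPKM in f/f. Kif16b, a motor of early endosomes, was at 4.91 FPKM in ed/ed and 5.71 FPKM in f/f. The last 3 had log2 ratios of -0.19, -0.34 and -0.18, and all 3 became positive once the length trend was removed (0.21, 0.09 and 0.21). Kif3c, a kinesin-2 of neurons, was at 2.11 FPKM in ed/ed and 3.30 FPKM in f/f.

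Ciliary kinesins had the class median nearest to 0, at -0.18, and at -0.23 without Kif19a, close to the -0.26 of all genes. Kif3a and Kif3b encode the motor subunits, and Kifap3 the third subunit, of the kinesin-2 complex that drives transport towards the cilium tip. Kif3a was at 8.16 FPKM in ed/ed and 10.1 FPKM in f/f. Kifap3 was at 7.23 FPKM in ed/ed and 9.12 FPKM in f/f. Kif3b was at 6.40 FPKM in ed/ed and 6.30 FPKM in f/f, a ratio of 1.02 with a counting interval of 0.907 to 1.14 that spans 1. The level of Kif3a over that of Kifap3 was 1.13 in ed/ed and 1.11 in f/f, so these subunits kept their proportion. Kif3a over Kif3b was 1.28 in ed/ed and 1.61 in f/f.

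Kif7, which regulates Gli factors at the cilium tip in Hedgehog signalling, was at 1.62 FPKM in ed/ed and 1.87 FPKM in f/f. Its log2 ratio of -0.13 turned positive under 5 of 9 alternatives, and its counting interval (0.674 to 1.11) spanned 1. Kif9, a kinesin of motile cilia and the member nearest above the limit, was at 0.812 FPKM in ed/ed and 1.13 FPKM in f/f. It passed the limit through the f/f library only, and its counting interval of 0.475 to 1.10 also spanned 1.

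Kif19a, which shortens cilia by removing tubulin from microtubule ends, stood apart as the only kinesin at least 2-fold higher in ed/ed. It was at 2.56 FPKM in ed/ed and 0.305 FPKM in f/f (ENSMUSG00000010021, chromosome 11), or 2.73-fold higher on the log2(FPKM + 1) scale. The FPKM ratio was 8.39 with a wide counting interval of 5.03 to 14.3, since it rests on 140 and 18 estimated fragments. It entered the analysis through the ed/ed library only. Kif19a is known from motile ciliated cells, and genes listed for motile cilia and the oviduct went both ways. Of 16 genes listed for motile cilia and oviduct 14 were matched, of which 6 were higher in ed/ed, 6 lower and 2 at 0 in both libraries. The 6 higher include Ovgp1, which is no gene of cilia. Genes under 1 FPKM in both libraries occur among the higher and the lower ones. Foxj1, the master regulator of motile cilia, was listed at 0 in ed/ed and was at 0.487 FPKM in f/f, and Dnah5, a ciliary dynein gene, was at 0.153 FPKM in ed/ed and 1.59 FPKM in f/f. Rsph1, a radial spoke gene, was at 1.10 FPKM in ed/ed and 0.594 FPKM in f/f. Of the 5 expressed, 2 were lower past 2-fold, Dnah5 and Hydin, against 6.22% of all genes, and 0 higher, against 2.68%. Dnah5 and Hydin passed the limit of 1 FPKM through the f/f library only, so this count gives no support for a direction. Hydin was at 0.528 FPKM in ed/ed and 2.27 FPKM in f/f. The oviduct secretory gene Ovgp1 was at 60.8 FPKM in ed/ed and 41.0 FPKM in f/f, and the other 13 genes summed to 4.46 FPKM in ed/ed and 8.64 FPKM in f/f. Foxj1, Rsph1 and Ovgp1 are named after their values were seen. The part of ciliated cells in the Kif19a level was not tested.

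The 3 remaining expressed members have other or mixed roles. Kif2a, a depolymerase of interphase cells and spindles, was at 6.91 FPKM in ed/ed and 13.04 FPKM in f/f, a log2 ratio of -0.83. It overlaps Dimt1 by 1229 bases on the other strand, and Dimt1 went the other way, at 4.47 FPKM in ed/ed and 3.35 FPKM in f/f. Kif26a, an atypical kinesin without motor activity, was at 0.559 FPKM in ed/ed and 1.54 FPKM in f/f. It passed the limit of 1 FPKM through the f/f library only. Kif21a, which restrains microtubule growth at the cell cortex, was at 3.48 FPKM in ed/ed and 2.85 FPKM in f/f, with a counting interval of 1.05 to 1.43 for the ratio.

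The other 10 kinesins stayed under 1 FPKM in both libraries. Kif21b (0.569 FPKM in ed/ed and 0.921 FPKM in f/f), Kif27 (0.757 and 0.913) and the neuronal motor Kif1a (0.341 and 0.820) lay just below the limit. Kif5a, Kif6, Kif17, Kif24 and Kif26b ranged from 0.0761 to 0.448 FPKM. Kif12, known from kidney and bile duct epithelium, and Kif2b were listed at 0 in both.

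Partners of mitotic kinesins had a median log2 ratio of -0.67. Of 15 genes listed, all were expressed and 15 were below 0, against 70.4% of all genes, and 2 were lower past 2-fold, against 6.22%, and 0 higher, against 2.68%. Prc1, which bundles midzone microtubules and is carried by Kif4, was at 6.30 FPKM in ed/ed and 19.3 FPKM in f/f. Anln, which encodes the contractile ring protein anillin, was at 5.32 FPKM in ed/ed and 12.8 FPKM in f/f. Cenpe, a centromere kinesin whose symbol lies outside the rule and which was named after its value was seen, was at 3.15 FPKM in ed/ed and 5.30 FPKM in f/f. Of 12 proliferation markers, 1 was lower, a share near the 6.22% of all genes, and 0 higher, with a median of -0.64. Ccnb1, the mitotic cyclin, was at 8.32 FPKM in ed/ed and 18.9 FPKM in f/f.

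The median of mitotic kinesins, -0.72, was near those of both lists, and the difference was not tested. Within the proliferation list, Pcna and E2f1, named after their values were seen, were near level. Pcna was at 91.5 FPKM in ed/ed and 101 FPKM in f/f, and E2f1 at 4.09 FPKM in ed/ed and 4.24 FPKM in f/f.

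Partners of cargo kinesins and other microtubule genes had few members past 2-fold, near the 6.22% lower and 2.68% higher of all genes. Of 18 kinesin light chain and adaptor genes, 17 were expressed and 0 passed 2-fold in either direction, with a median of -0.54. The largest difference belonged to Mapk8ip1, a scaffold that binds the light chains, at 3.17 FPKM in ed/ed and 6.80 FPKM in f/f. Of 23 genes of dynein and dynactin, the motor that runs the other way, 1 was lower and 0 higher, with a median of -0.36. The lower one was Hook1, a dynein adaptor, at 33.6 FPKM in ed/ed and 98.9 FPKM in f/f. Of 12 expressed tubulins, 1 was lower and 0 higher, with a median of -0.35. That gene was Tubg1, which encodes the gamma-tubulin that seeds microtubules at centrosomes, at 2.79 FPKM in ed/ed and 12.1 FPKM in f/f.

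Lists of cilia and Hedgehog genes had lower medians than the ciliary kinesins. Of 29 genes for intraflagellar transport and the BBSome, 3 were lower past 2-fold, against 6.22% of all genes, and 0 higher, around a median of -0.52. They were Dync2li1, a subunit of the returning ciliary dynein, at 7.26 FPKM in ed/ed and 17.2 FPKM in f/f, Ift122 at 2.81 and 7.21 FPKM, and the BBSome gene Ttc8 at 4.62 and 10.3 FPKM. Of 11 expressed Hedgehog genes, 1 was lower, a share near that of all genes, and 0 higher, with a median of -0.64. That was the receptor gene Ptch1, at 11.3 FPKM in ed/ed and 23.8 FPKM in f/f, while Kif7 differed by a log2 ratio of -0.13.

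**Figure D4:**
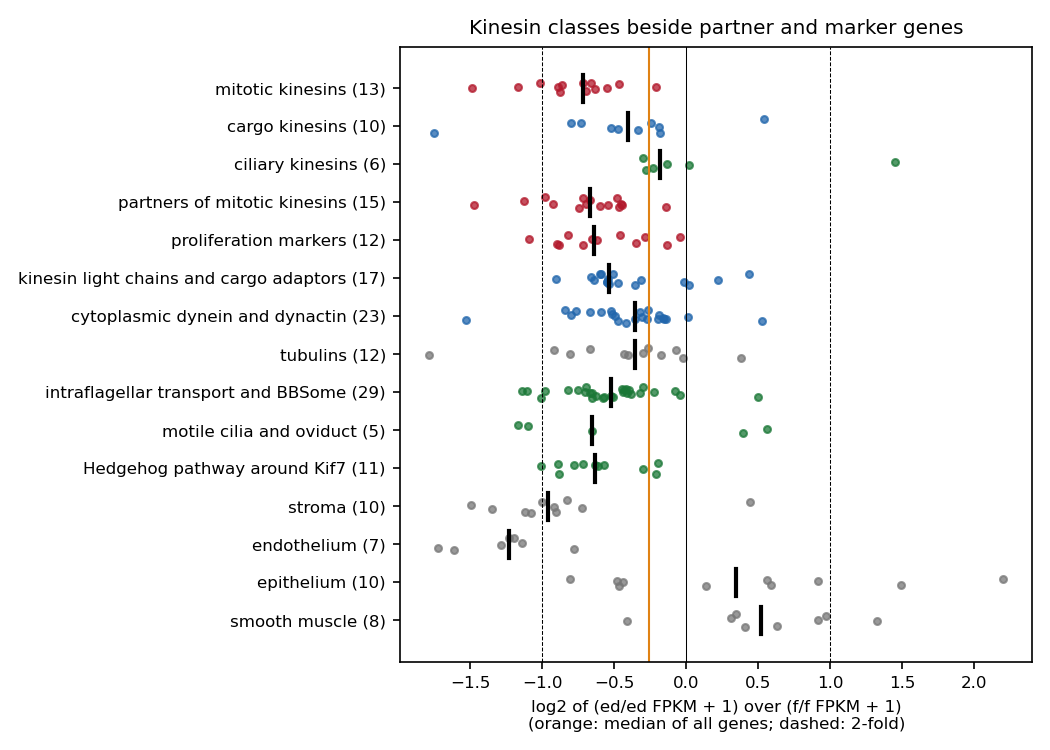
Log2 ratio of ed/ed over f/f for expressed genes of 3 kinesin classes and of partner and marker lists, 1 point per gene, with a black bar at each median and the number of genes in parentheses. Mitotic kinesins (-0.72) lie beside their partners (-0.67) and proliferation markers (-0.64), and ciliary kinesins (-0.18) lie above the intraflagellar transport list (-0.52).

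Markers of the cell types of the uterus moved between the libraries as well. Their counts past 2-fold stand beside 6.22% lower and 2.68% higher among all genes. In bulk tissue, fewer cells of a type and less RNA per cell cannot be told apart. Of 10 stroma markers, 4 were lower past 2-fold and 0 higher, and their summed level was 497 FPKM in ed/ed and 1029 FPKM in f/f. The largest differences were those of Pdgfra (9.30 FPKM in ed/ed and 27.99 FPKM in f/f), Col3a1 (96.4 and 247) and Col1a1 (35.6 and 78.6). Of 7 expressed endothelium markers, 6 were lower and 0 higher, with summed levels of 70.9 FPKM in ed/ed and 176 FPKM in f/f. They were led by Cdh5 (12.01 FPKM in ed/ed and 42.0 FPKM in f/f), Tek (1.93 and 7.92) and Tie1 (7.44 and 19.6). Of 10 epithelium markers, 2 were higher and 0 lower past 2-fold, with 2247 FPKM in ed/ed and 2186 FPKM in f/f. The list was split, with 6 log2 ratios above 0 and 4 below (Krt19, Krt8, Esrp1 and Krt18). Krt19 was at 222 FPKM in ed/ed and 388 FPKM in f/f. Foxa2, among the higher ones (4.40 FPKM in ed/ed and 0.924 FPKM in f/f), passed the limit of 1 FPKM through the ed/ed library only. Of 8 smooth muscle markers, 1 was higher and 0 lower, with 813 FPKM in ed/ed and 494 FPKM in f/f, the higher one being Cnn1 (122 FPKM in ed/ed and 48.2 FPKM in f/f). The part of this shift in the lower mitotic kinesins was not tested. Nerve markers bear on Kif5c and Kifc2, and of 16 listed 4 were expressed and 5 were at 0 in both libraries, among them Sox10 and Elavl4. Of the expressed 4, Uchl1 was 2-fold lower, at 0.853 FPKM in ed/ed and 3.78 FPKM in f/f. Uchl1 passed the limit of 1 FPKM through the f/f library only. Of 14 lymphoid and erythroid markers 8 were expressed, with 0 past 2-fold either way and Alas2 differing most (3.52 FPKM in ed/ed and 1.36 FPKM in f/f). Of 8 embryo markers and 8 ovary markers, 3 and 2 were expressed, with Elf5 (4.74 FPKM in ed/ed and 3.47 FPKM in f/f) and Star (2.29 and 0.667) differing most, and Pou5f1, Nanog and Cdx2 were listed at 0 in both libraries. Of 12 reference genes 0 passed 2-fold, around a median of -0.32, with Tbp differing most (7.96 FPKM in ed/ed and 13.5 FPKM in f/f).

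Log2 ratios fell with transcript length across all genes (Spearman rank correlation -0.22), and kinesin transcripts are long. Among the 32 kinesins together the ratios did not fall with length (0.09), while among the 13 mitotic kinesins they did (-0.70). The median longest coding transcript was 4838.5 nt for expressed kinesins, 3398 nt for mitotic ones, 6737.5 nt for cargo ones and 3089 nt for all genes. Among deciles of length, the genes with the shortest transcripts had a median log2 ratio of -0.01 and those with the longest -0.43. With a lowess trend on length removed, the mitotic median was -0.43, with 12 of 13 members below 0, against 50.1% of all genes. The cargo median was 0.01 and the ciliary median 0.10. Kif20b and Kifc2 remained 2-fold lower, against 2.86% of all genes, and Kif19a remained higher, against 4.32%. Kif20a and Kif2c were then at -0.89 and -0.79, within 2-fold.

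**Figure D5:**
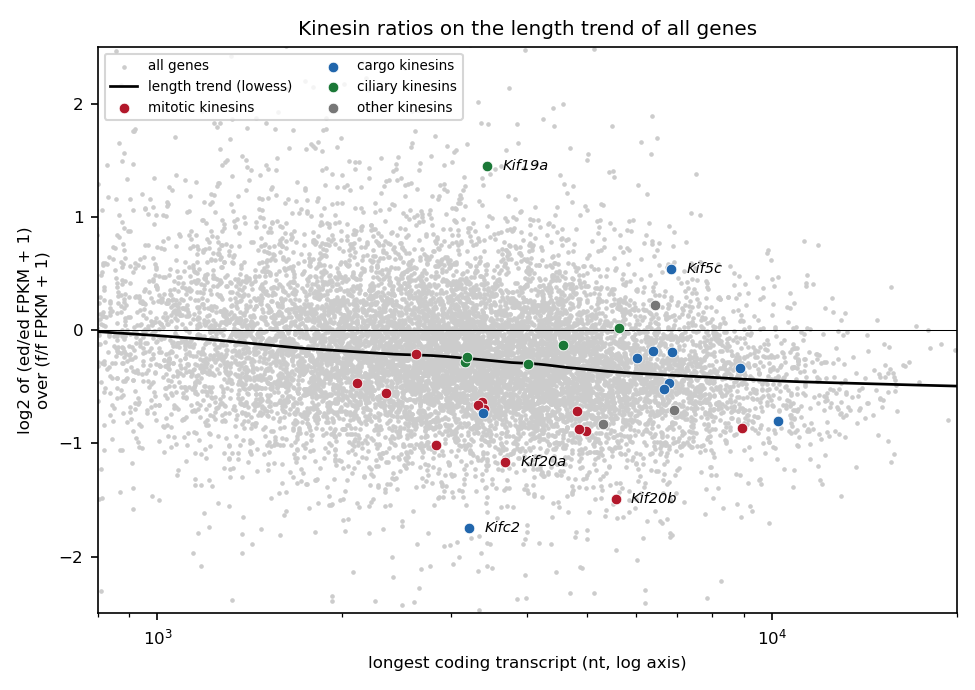
Log2 ratio of ed/ed over f/f against the longest coding transcript in nt on a log axis, for all expressed genes (grey) and kinesins (coloured by class), with the lowess trend as a line. All mitotic kinesins except Kifc5b lie under the line, and Kif19a and Kif5c lie well above it. Points beyond the axes are not drawn.

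Some kinesin values may hold reads of other genes. In 8 of the 32 expressed members, more than 15% of the 31-base words of the transcript also occur in transcripts of another gene. These are Kif20a, Kif2a, Kif3c, Kif4, Kif7, Kifc1, Kifc3 and Kifc5b. The TruSeq label does not say whether strand was kept, so overlapping genes on opposite strands cannot be told apart. Kif20a overlaps Cdc23 by 2327 bases, and Cdc23 was at 18.5 FPKM in ed/ed and 23.4 FPKM in f/f. Kif4 overlaps Pdzd11 by 832 bases, and Pdzd11 was at 28.8 FPKM in ed/ed and 31.6 FPKM in f/f. Of the members past 2-fold, only Kif20a is among these 8, and without them the mitotic median was again -0.72.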

How the data were processed

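Whole-uterus RNA extracted with TRIzol was made into TruSeq libraries, per the labels' protocols. The authors deposited 1 value per gene and library, taken here as FPKM because the submitters' processing notes name HISAT2 2.2.1 and Cufflinks 2.2.1 and the header names no unit. Both mm9 and mm10 appear in those notes, and it is unclear which one the values rest on. The labels state no annotation, filter or strand. The log2 ratio of ed/ed to f/f was taken with 1 FPKM added to each value, for genes that reached 1 FPKM in at least 1 library, and called at 2-fold. Every kinesin past that limit is named. From other lists up to 3 members past 2-fold, or else the largest difference, are named, and a gene outside this rule was chosen after its value was seen. Some genes that the rule would name are not reported here. Members and lists were chosen with earlier results of these data known. Lengths and overlaps came from GENCODE M21 (GRCm38), matched on Ensembl identifier for 20571 genes, and locate genes, not reads. Fragments were estimated from the spacing of low values, with transcripts taken 250 nt shorter. The ratio intervals are exact (Clopper-Pearson, 95%). The length trend was a lowess with fraction 0.3 (statsmodels 0.14.6). Recovery of depth and fold was tried only on data simulated with counting error and the same length formula. That checks the calculation and not the depth of the real libraries.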

Additional observations from a re-analysis of the deposited data

How the results depend on the processing

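No paired analysis was possible because each genotype has 1 library, and for the same reason none could be left out. Among the results given here, the mitotic median stayed below 0 under every alternative, while the size of the class medians and the number of calls moved. As deposited the medians were -0.72 for mitotic, -0.40 for cargo, -0.18 for ciliary and -0.70 for other kinesins, with 4 kinesins lower, 1 higher and 1083 of all genes called. With ed/ed scaled to a median ratio of 1, the medians were -0.47, -0.16, 0.0220 and -0.57 in that order, with 2 kinesins lower. Scaled to the reference genes they were -0.45, -0.13, 0.0482 and -0.54, with 2 lower. Scaled to the upper quartile the mitotic, cargo and ciliary medians were -0.55, -0.24 and -0.0457, with 2 lower. With the length trend removed the 4 medians were -0.43, 0.0101, 0.10 and -0.31, with 2 lower. With a pseudocount of 5 they were -0.44, -0.22, -0.0652 and -0.23, with 0 kinesins lower, 0 higher and 319 genes called. With a pseudocount of 0.1 the mitotic and other medians were -0.92 and -0.91, with 8 kinesins lower and 1825 genes called. At 1.5-fold, 15 kinesins were lower and 3706 genes called. The median of other kinesins was -0.83 with a filter at 5 FPKM, which removes Kif19a and leaves 0 kinesins higher, and -0.19 with no filter. 4 alternatives were added after seeing the data. Relative to the all-gene median, the 4 medians were -0.46, -0.14, 0.0774 and -0.44, with 2 lower. Without Kifc1 and Kifc5b the mitotic median was -0.86. Without the 8 members that share more than 15% of their 31-base words with another gene, the cargo and other medians were -0.29 and -0.24. Without Kif19a 0 kinesins were higher and the ciliary median was -0.23. The ciliary median thus changed sign with scaling or length and the cargo median with length, and so did, under at least 1 alternative, the single values of Kif5b, Kif13a, Kif16b, Kifc5b, Kif7, Kif9, Kif3a and Kif13b. Of all genes, 326 were called higher and 757 lower as deposited, against 600 and 387 with the median ratio at 1, 648 and 354 with the reference genes and 503 and 468 with the upper quartile. Depth limits Kif19a, Kif9 and Kifc2 most, which rest on few fragments.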

Other observations

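The m6A mark is often found at GGACT, a form of its consensus motif. The longest coding transcripts of the mitotic kinesins held a median of 0.602 GGACT per kb, those of cargo kinesins 1.47, those of ciliary kinesins 1.21 and those of all expressed genes 1.05. Of the 4 kinesins at least 2-fold lower in ed/ed, Kif20a held 0 in 3674 nt, Kif20b 5 (0.899 per kb), Kif2c 4 (1.41 per kb) and Kifc2 5 (1.55 per kb). Methylation was not measured in these libraries, and the motif count says nothing of which sites are modified.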
